A study of Mus musculus with 9 samples.

Results

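The genes described here are 9 that mark striatal projection neurons, the medium spiny neurons that send the output of the striatum. They were taken by name: Drd1, Drd2, Adora2a, Penk, Tac1, Foxp1, Isl1, Ppp1r1b and Rarb. Each was found as 1 row of a table of 18820 genes, and all 9 passed the filter on low values (a mean normalized count of 10 or more), as did 15069 genes in all. The RNA came from the cortex of C57BL/6J embryos taken on embryonic day 18.5, in 3 libraries wild type for Cyfip2 (WT1, WT2 and WT3), 3 heterozygous (Het1, Het2 and Het3) and 3 homozygous mutant (KO1, KO2 and KO3). The labels name no other difference between the groups and do not describe the mutant allele. Nor do they say whether a genotype's 3 libraries are 3 embryos. Het and KO each hold libraries of both sexes, which cannot come from 1 embryo, and nothing settles this for WT. Each p-value measures the spread between these libraries. Because the tissue is cortex and not striatum, the question asked of these genes was how far their levels follow the Cyfip2 genotype and how far they follow what else was in the dissected tissue.

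Striatal projection neurons arise from the ganglionic eminences, lie directly beneath the developing cortex, and release GABA. They fall into a direct pathway, whose neurons carry the dopamine D1 receptor and the neuropeptide substance P, and an indirect pathway, whose neurons carry the dopamine D2 receptor, the adenosine receptor Adora2a and enkephalin. Some of their genes are not particular to them: Drd1, Ppp1r1b and Foxp1 are also made by excitatory neurons of the cortex, and Penk and Tac1 by some cortical interneurons. In bulk RNA such as this, fewer cells of a type and less RNA per cell cannot be told apart.

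Regulatory sequence is shown for Isl1, Drd2 and Rarb, which had their highest values in the same libraries, as Tac1 and Adora2a also did. The RefSeq promoter table (GRCm38.p6) holds windows for 6 members, Tac1, Foxp1, Drd2, Drd1, Isl1 and Rarb, and none was matched for Adora2a, Penk and Ppp1r1b. Each window is the 250 bases before an annotated start, 5′ to 3′ on the strand of the gene. Capitals mark 2 motifs searched on both strands: CGTCA, the core of the cAMP response element, and GGGCGG, the GC box bound by Sp factors. The windows are chr13:116309689-116309938 (minus strand) for Isl1 and chr9:49340153-49340402 (plus strand) for Drd2. The third sequence is a direct repeat from the Rarb window (chr14:16575477-16575726, minus strand, inside the span of the gene), of the form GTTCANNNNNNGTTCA, which is the kind of site that retinoic acid receptors bind.
Isl1: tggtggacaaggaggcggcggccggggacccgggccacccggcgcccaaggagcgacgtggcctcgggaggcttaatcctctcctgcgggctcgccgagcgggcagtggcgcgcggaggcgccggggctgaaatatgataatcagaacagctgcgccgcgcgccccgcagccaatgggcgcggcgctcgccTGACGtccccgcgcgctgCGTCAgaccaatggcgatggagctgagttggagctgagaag
Drd2: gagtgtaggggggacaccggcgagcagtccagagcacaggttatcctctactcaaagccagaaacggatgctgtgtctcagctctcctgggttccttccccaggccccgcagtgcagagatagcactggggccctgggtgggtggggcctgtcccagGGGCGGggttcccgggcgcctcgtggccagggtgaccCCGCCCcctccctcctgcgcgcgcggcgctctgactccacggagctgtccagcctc
Rarb direct repeat: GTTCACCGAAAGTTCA
The Rarb repeat begins 52 bases before its start, and this repeat form was present in 0.0670% of the 32851 mouse windows of the same length (22 windows). The Isl1 window holds CGTCA 2 times, at 59 and 41 bases before the start, against 17.8% of all windows with at least 1 copy. The Drd2 window holds GGGCGG 2 times, at 93 and 56 bases before the start, against 32.7% of all windows. The Tac1 window, which is not printed, holds CGTCA at 197 and 43 bases before its start and GGGCGG at 107. These matches describe the letters and not the binding of any factor.

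The libraries differed in more than genotype. Cyfip2 itself, the targeted gene, had normalized counts (read counts that the authors divided by size factors, so that libraries can be compared) of 10169, 10344 and 11174 in WT, 8969, 9779 and 9882 in Het, and 7900, 7522 and 8255 in KO, with no overlap between the groups. The libraries held about 29.5 M (KO1) to 54.5 M (WT2) reads, where M is mega. Cortical identity was strong in all 9, with Neurod6, a marker of excitatory cortical neurons, between 19275 and 32658. The female libraries were Het1, KO1 and KO2, in which the Y chromosome gene Ddx3y is at 0, and the 6 male ones had 1394 to 1674 of it. Cdhr1, a gene of olfactory bulb mitral and tufted cells, reached 2230 for WT3, 3436 for Het1, 3237 for KO1 and 2138 for KO2, while the other 5 lay at 21.8 to 53.1. All 3 female libraries thus held bulb RNA, with only 1 male library beside them, and no WT library was female. For these 3 libraries the embryo's sex, the extent of the dissection and the mutant genotype cannot be told apart.

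Taken over the 9 libraries, the striatal genes moved in 2 blocks, neither of which matched a genotype group. Drd2, Adora2a, Tac1, Isl1 and Rarb all had their 3 highest values in Het1, KO1 and KO2, a pattern shared by 6.15% of all genes tested. Drd1 and Ppp1r1b had their 3 highest values in WT3, Het3 and KO3, shared by 9.26% of genes tested. Penk and Foxp1 did neither. Both patterns were noticed in these values and carry no test.

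**Figure D1:**
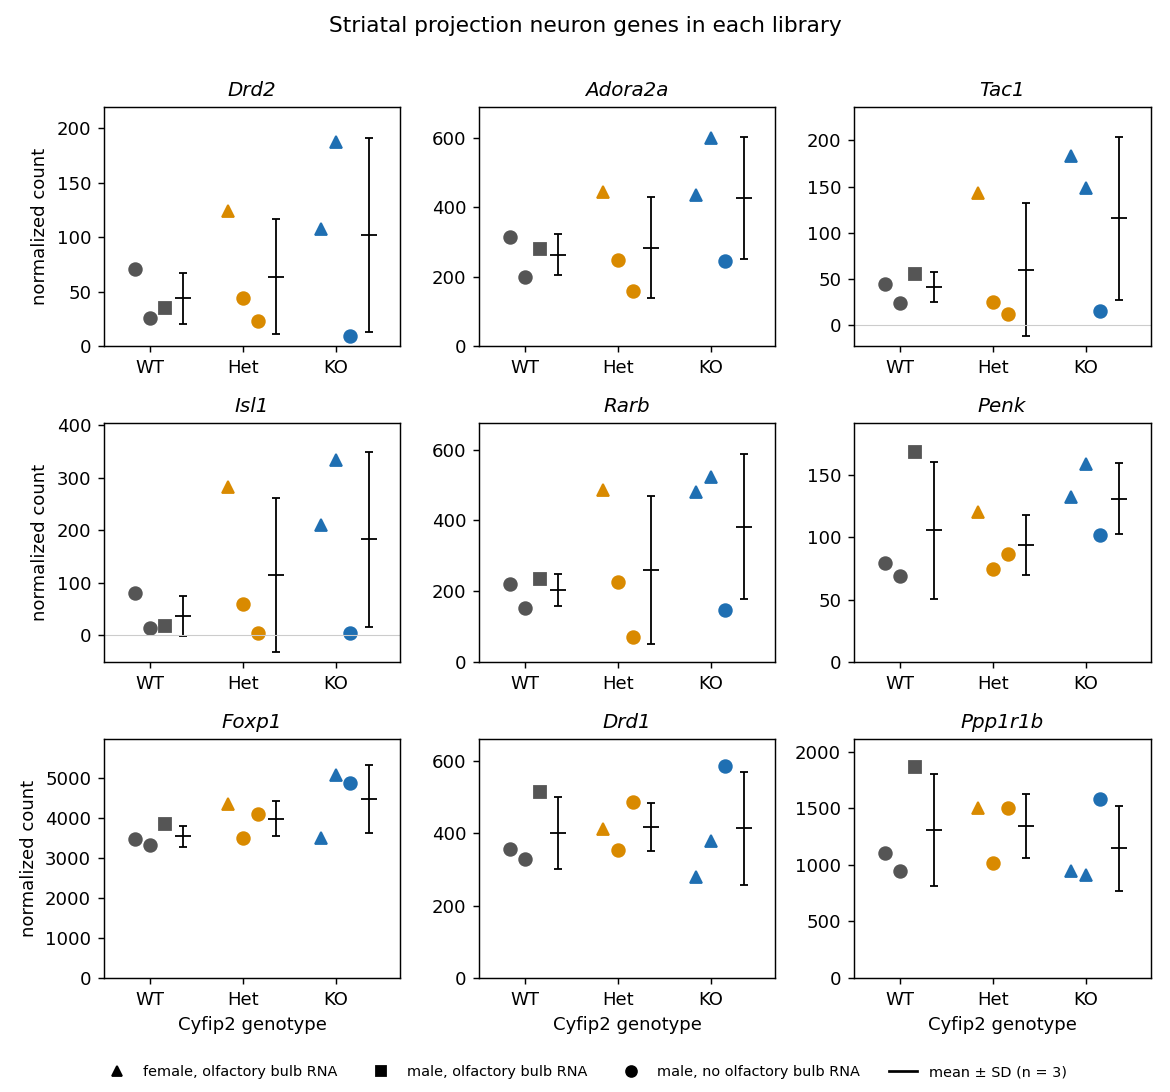
Normalized count of each of the 9 genes in each library (y axis, from 0 or just below it), by Cyfip2 genotype (x axis). Colour is genotype, the marker shape gives sex and the presence of olfactory bulb RNA, and the black bar is the mean ± SD of 3 libraries; the female libraries (triangles) are the highest for Drd2, Adora2a, Tac1, Isl1 and Rarb, while KO3 (blue circle) is the lowest of its group in each of those 5.

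The transcription factors of this set include the member with the widest range. Isl1 (ENSMUSG00000042258, GRCm38 chr13:116298281-116309689, minus strand), a LIM homeodomain factor that specifies direct pathway neurons, had 79.6, 13.1 and 16.7 normalized counts in WT, 282, 58.9 and 4.03 in Het, and 209, 334 and 4.73 in KO. The 3 female libraries lay far above the rest, and the lowest values were in Het3 and KO3, so that the mutant groups each spanned the whole range of WT. The highest library exceeded the lowest 82.8-fold, and the spread within a genotype was 69.9-fold in Het, 70.6-fold in KO and 6.07-fold in WT. The lowest values rest on very few reads, since 3 reads were worth 3.23 in Het3 and 2.77 in KO3. Group means were 36.5 ± 37.4, 115 ± 147 and 183 ± 166 (SD, n = 3 each). The KO against WT log2 fold change was 1.44 ± 1.79 (SE, 95% interval -2.64 to 5.52), with a limma adjusted p of 1.00, far inside the spread between libraries.

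Rarb (ENSMUSG00000017491, chr14:16430839-16819156, minus strand) encodes the retinoic acid receptor beta, which striatal neurons need for their differentiation. Its normalized counts were 222, 153 and 236 in WT, 485, 226 and 69.5 in Het, and 479, 522 and 147 in KO. The 3 female libraries agreed closely at 479 to 522, and the highest of the other 6 was 236. Means were 203 ± 44.4, 260 ± 210 and 383 ± 205 (SD, n = 3), and the KO against WT log2 fold change was 0.73 ± 0.70 (SE, limma adjusted p = 1.00). Rarb lies across Top2b on the opposite strand, and the sources used here do not say whether the counting used strand. Top2b ranged only from 13036 (WT3) to 14505 (WT1), with 13532 in Het1, 13289 in KO1 and 13874 in KO2.

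Foxp1 (ENSMUSG00000030067, chr6:98925338-99522721, minus strand), a forkhead factor of both striatal and cortical neurons, varied least of the 9. It had 3469, 3328 and 3839 normalized counts in WT, 4340, 3498 and 4106 in Het, and 3506, 5069 and 4869 in KO. KO1 fell within the WT range, while the other 2 KO libraries were the highest of all 9. The means were 3545 ± 264, 3981 ± 435 and 4481 ± 851 (SD, n = 3). Its KO against WT log2 fold change of 0.32 ± 0.14 (SE, 95% interval -0.00 to 0.65) had an unadjusted p of 0.0512 and a limma adjusted p of 1.00. In the male libraries alone, with KO3 as the only KO library, it was 0.46 ± 0.12 (SE, limma adjusted p = 0.996). With a covariate for the dopamine and cAMP signalling genes described further on it was 0.09 ± 0.12 (SE). Foxp1 shares its locus with Gm20696, which had only 4.70 to 31.6 normalized counts.

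Among the receptors, Drd2 and Adora2a of the indirect pathway moved with Isl1, and Drd1 of the direct pathway did not. Drd2 (ENSMUSG00000032259, chr9:49340627-49408177, plus strand) encodes the inhibitory dopamine D2 receptor. Its normalized counts were 70.6, 26.2 and 34.8 in WT, 124, 44.5 and 23.1 in Het, and 108, 188 and 9.53 in KO. The 3 KO libraries held both the highest and the lowest value of all 9, a 19.7-fold span within a genotype. Means were 43.9 ± 23.6, 63.8 ± 53.0 and 102 ± 89.2 (SD, n = 3), and the KO against WT log2 fold change was 0.54 ± 1.04 (SE, 95% interval -1.82 to 2.91, limma adjusted p = 1.00).

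Adora2a (ENSMUSG00000020178, chr10:75316877-75334784, plus strand), the adenosine receptor that opposes D2 signalling in the same cells, had 315, 197 and 278 normalized counts in WT, 442, 248 and 159 in Het, and 435, 599 and 245 in KO. Again the 3 female libraries stood above the rest, at 435 or more against at most 315. The means were 263 ± 60.1, 283 ± 145 and 426 ± 177 (SD, n = 3). The KO against WT log2 fold change was 0.63 ± 0.42 (SE, 95% interval -0.33 to 1.58, limma adjusted p = 1.00).

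Drd1 (ENSMUSG00000021478, chr13:54051183-54055705, minus strand), the stimulatory D1 receptor, had 356, 330 and 514 normalized counts in WT, 411, 355 and 488 in Het, and 278, 379 and 585 in KO. KO1, which was among the 3 highest libraries for Isl1, Rarb, Drd2 and Adora2a, was the lowest here, and KO3 was the highest. The means of 400 ± 99.6, 418 ± 67.0 and 414 ± 156 (SD, n = 3) were nearly equal, with a KO against WT log2 fold change of 0.01 ± 0.28 (SE, limma adjusted p = 1.00). The 95% interval of that difference, -0.62 to 0.64, is what these libraries allow.

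Of the neuropeptide precursors, Tac1 lay with Isl1 and Penk with neither block. Tac1 (ENSMUSG00000061762, chr6:7554879-7565834, plus strand), the precursor of substance P and a direct pathway gene, had 44.8, 23.7 and 55.9 normalized counts in WT, 143, 25.6 and 12.3 in Het, and 183, 149 and 15.3 in KO. The direct pathway marker Tac1 thus lay high in the same 3 libraries as the indirect pathway receptors, and not in those where Drd1 was high. Its means were 41.4 ± 16.3, 60.3 ± 71.9 and 116 ± 88.4 (SD, n = 3), with a KO against WT log2 fold change of 0.93 ± 1.07 (SE, 95% interval -1.50 to 3.37, limma adjusted p = 1.00). Penk (ENSMUSG00000045573, chr4:4133531-4138819, minus strand), the precursor of the enkephalins, had 79.8, 68.8 and 169 normalized counts in WT, 121, 74.4 and 86.4 in Het, and 133, 159 and 102 in KO. WT3 was the highest for Penk, followed by the 3 female libraries, so the 4 libraries with olfactory bulb RNA were the 4 highest. The Penk means were 106 ± 54.8, 93.8 ± 24.0 and 131 ± 28.3 (SD, n = 3), with a KO against WT log2 fold change of 0.40 ± 0.35 (SE, limma adjusted p = 1.00).

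Ppp1r1b (ENSMUSG00000061718, chr11:98348404-98357796, plus strand) encodes DARPP-32, the phosphatase inhibitor through which dopamine acts downstream of cAMP. Its normalized counts were 1108, 944 and 1867 in WT, 1503, 1016 and 1506 in Het, and 949, 907 and 1579 in KO. The order of the libraries resembled that of Drd1 in part, with WT3 and KO3 at the top and KO1 near the bottom. KO2 was the lowest here but in the middle for Drd1. Means were 1306 ± 493, 1342 ± 282 and 1145 ± 376 (SD, n = 3). It was the only member with a negative KO against WT log2 fold change, -0.17 ± 0.30 (SE, limma adjusted p = 1.00).

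Across the 3 genotype comparisons, limma called none of the 9 members, against a background in which 0% of the 15069 genes were called higher and 0% lower in each of the 3. At an unadjusted p under 0.05 the counts were 178 genes in KO against WT, 242 in Het against WT and 541 in KO against Het (984 with the replicate number as a block, which also called 0 genes). The KO against WT fold change was positive for 8 of the 9 members (7 after quantile normalization, where Drd1 turned to -0.06), beside 48.4% of all genes, and the members' median was 0.54 on the log2 scale beside -0.00 for all genes. In Het against WT it was positive for 6 members, or 5 after upper-quartile rescaling and 9 after quantile normalization, beside 46.2% of all genes, with a median of 0.08 against -0.01. In KO against Het it was positive for 7 members (50.4% of all genes), with a median of 0.49 against 0.00. Of the 3 female libraries 2 are KO and 1 is Het, and the comparisons share their samples. No member had groups that did not overlap, in any comparison, while 6.46% of all genes did so in KO against WT, 6.67% in Het against WT and 7.82% in KO against Het.

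By mean normalized count, 6 members rank in the order WT, Het and KO: Drd2, Adora2a, Tac1, Foxp1, Isl1 and Rarb. The share of all genes with this order was not counted. All but Foxp1 are the members highest in Het1, KO1 and KO2, a set that holds no WT library. The steps are within the spread. For Rarb and Tac1 even the direction from WT to Het depends on the scale, since the mean of the log2 values was lower in Het (-0.02 ± 0.70 and -0.11 ± 1.07, SE) although the mean count was higher, and quantile normalization made both positive. The largest Het against WT log2 fold change was that of Isl1, 0.69 ± 1.79 (SE, limma adjusted p = 1.00), and the largest in KO against Het was that of Tac1, 1.05 ± 1.07 (SE, limma adjusted p = 0.943). The share of the variance of log2 values between genotype means had a median of 12.0% over the members, from 1.2% for Drd1 to 38.8% for Foxp1. Its median over all genes was 17.0%. With 3 libraries per group this share lies above 0 without any effect of genotype, so it is no measure of such an effect. The SD of log2 values within a genotype had a median of 0.60 over the members and 0.15 over all genes tested, and reached 2.63 for Isl1, 1.56 for Tac1 and 1.51 for Drd2.

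Sex and olfactory bulb RNA divide the libraries in a way that can be set beside these values. The mean of the 3 female libraries over that of the 6 male ones was 9.31 for Isl1, 5.34 for Tac1, 4.02 for Drd2, 2.82 for Rarb and 2.05 for Adora2a. It was 1.42 for Penk, 1.12 for Foxp1, 0.838 for Ppp1r1b and 0.813 for Drd1. The male library with bulb RNA, WT3 with 2230 normalized counts of Cdhr1, differed from gene to gene. It lay below WT1, which had 43.3 of Cdhr1, for Isl1 (16.7 against 79.6), Drd2 (34.8 against 70.6) and Adora2a (278 against 315). It was the highest of the 6 male libraries for Rarb (236) and Tac1 (55.9) and the highest of all 9 for Penk (169). The plot of Isl1 and Drd1 against Cdhr1 shows the first of these.

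**Figure D2:**
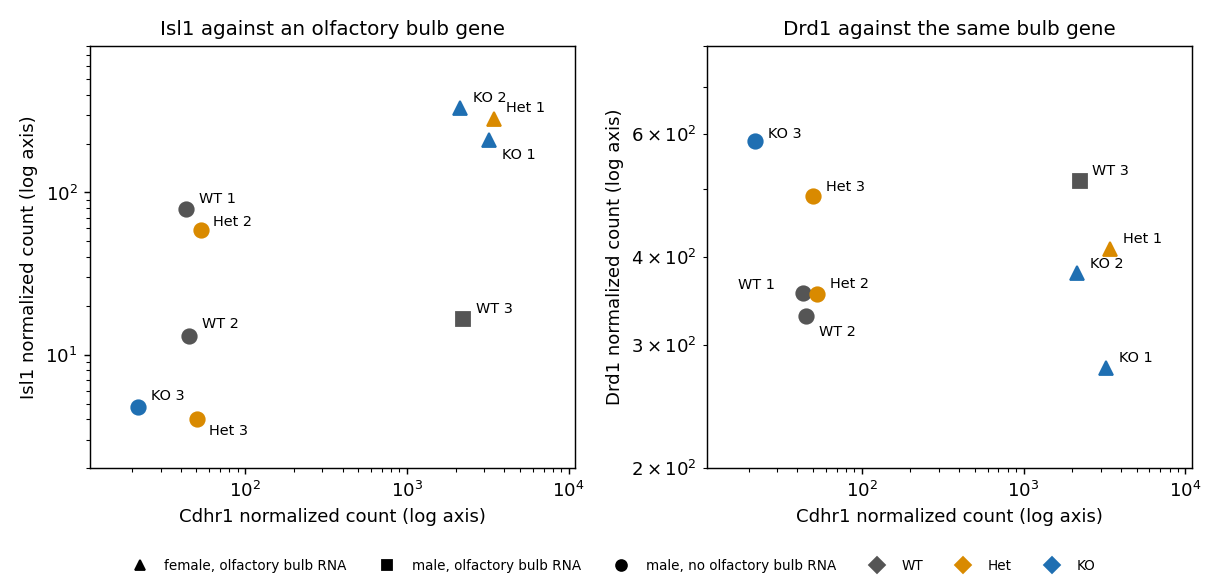
Normalized count of Isl1 (left) and Drd1 (right) against that of the olfactory bulb gene Cdhr1 in the 9 libraries, all axes on a log scale; colour is genotype and shape gives sex and bulb RNA. Isl1 is at 209 or more in the 3 female libraries with bulb RNA and at 16.7 in the male one (WT3), whereas Drd1 is highest in KO3, which has the lowest Cdhr1.

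Models that carried sex or tissue turned the sign of several KO against WT fold changes. With sex as a term, the log2 fold changes were -1.75 ± 1.2 for Isl1, -1.35 ± 0.64 for Drd2, -1.16 ± 0.47 for Tac1, -0.50 ± 0.47 for Rarb and -0.11 ± 0.29 for Adora2a (SE), all with a limma adjusted p of 0.965 or above. These 5 were all positive without the term. In the male libraries alone, KO3 against the 3 WT libraries gave -2.25 ± 1.57 for Isl1, -1.97 ± 0.67 for Drd2 and -1.30 ± 0.65 for Tac1 (SE, limma adjusted p = 0.996 each). That fit rests on 1 KO library, assumed to vary like the other groups. With bulb RNA as a term, the values were 0.48 ± 1.54 for Isl1, -0.05 ± 0.84 for Drd2 and 0.15 ± 0.60 for Tac1 (SE).

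Within the 2 sets of libraries that bulb RNA defines, the direction differed. In the 5 libraries without it, KO3 against WT1 and WT2 gave -2.56 ± 1.78 for Isl1, -2.07 ± 0.78 for Drd2, -1.04 ± 0.69 for Tac1 and 0.77 ± 0.24 for Drd1 (SE, limma adjusted p from 0.807 to 0.820). In the 4 libraries with it, KO1 and KO2 against WT3 gave 3.91 ± 0.36 for Isl1, 2.00 ± 0.41 for Drd2, 1.54 ± 0.32 for Tac1 and -0.66 ± 0.25 for Drd1 (SE). Of these, limma called Isl1 higher (adjusted p = 0.00657) and, among the other members, Ppp1r1b lower at -1.01 ± 0.14 (SE, adjusted p = 0.0278), where it called 0.206% of all genes higher and 0.146% lower. Het1 against WT3, 1 library against 1, gave 4.0 ± 0.41 for Isl1 (SE, limma adjusted p = 0.0172), with 0.113% of all genes called higher and 0.0929% lower. WT3 and Het1 add nothing to that error, which comes from KO1 and KO2 and, through limma, from the spread of all genes tested. Isl1 varied more within a genotype than most genes (SD of log2 2.63, against a median of 0.15), so its error may be too small. No member was called between KO and Het among these 4, where 0.166% of genes were higher and 0.0332% lower. These fits compare a lone male WT library with female mutant libraries and have 1 residual degree of freedom. The lone WT3 and Het1 are assumed to vary like KO1 and KO2, and no call among these 4 libraries has a replicate check in WT or Het. Sex and genotype cannot be told apart in these fits. Over all alternatives, the limma adjusted p of Isl1 in KO against WT ran from 0.00657 to 1.00, that of Ppp1r1b from 0.0278 to 1.00, and that of Isl1 in Het against WT from 0.0172 to 1.00.

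**Figure D3:**
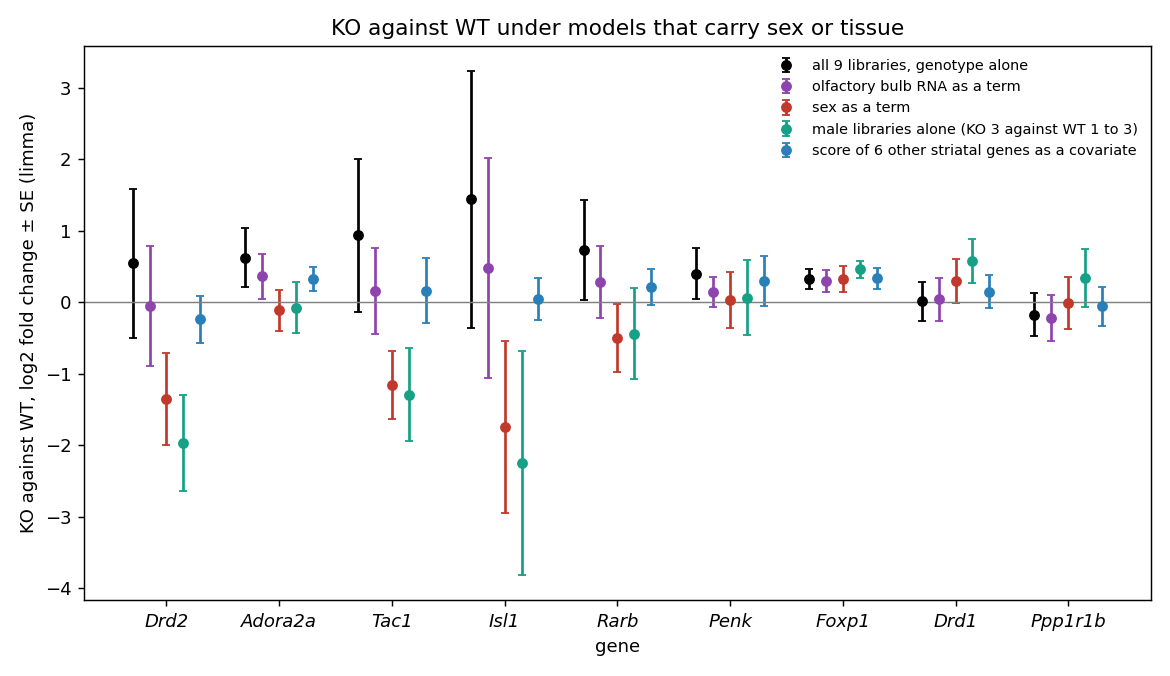
KO against WT log2 fold change ± SE (y axis, limma) of the 9 genes (x axis) with genotype alone and under 4 models that carry sex or tissue. Isl1, Tac1 and Drd2 are above 0 with genotype alone and below 0 with sex as a term or in the male libraries alone, and Foxp1 is positive in all 5.

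Genes outside the set that are linked to the same neurons were read from lists. Some were high in every library of this cortex, such as Grik3 (8625 to 10196) and Foxp2 (850 to 1846). The list counts therefore do not stand for striatal neurons alone. Of the direct pathway partners, 5 of 7 had a positive KO against WT log2 fold change with a median of 0.12, and none passed the limma test. Ebf1, a transcription factor of direct pathway neurons, had 282, 152 and 206 normalized counts in WT, 674, 271 and 99.3 in Het, and 554, 828 and 125 in KO (0.90 ± 0.80, SE). Slc35d3, a transporter gene of those neurons, had a log2 fold change of 1.13 ± 1.16 (SE), and Eya1, a transcriptional coactivator, one of -0.29 ± 0.31 (SE). Of the 7, Ebf1 and Slc35d3 had their 3 highest values in the female libraries, a pattern shared by 6.15% of all genes tested. Sfxn1 instead had them in WT3, Het3 and KO3, and the rest did neither.

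Indirect pathway partners had 5 positive of 6 tested, a median of 0.24 and none called. Ptprm, a receptor phosphatase, gave 0.27 ± 0.14, Gpr6, an orphan receptor of indirect pathway neurons, 1.02 ± 0.71, and Grik3, a kainate receptor subunit, -0.05 ± 0.05 (log2 KO against WT, SE). Of the 6, Gpr6 and Sp9, a zinc finger factor required for indirect pathway neurons, had their 3 highest values in the female libraries. The rest did not. The list of striatal transcription factors had 9 of 10 positive, a median of 0.26 and none called, and 6 of the 10 were highest in those 3 libraries: Rxrg, Foxp2, Meis1, Zfp503, Sox8 and Zfhx3. Foxp2 gave 0.34 ± 0.23, Zfhx3 0.65 ± 0.59 and Zfp503 0.90 ± 0.94 (log2 KO against WT, SE).

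Of 14 dopamine and cAMP signalling genes, 2 had their 3 highest values in the female libraries, 4 had them in WT3, Het3 and KO3, and 8 did neither. In this list 8 were positive in KO against WT, with a median of 0.02 and none called. Pde7b, a cAMP phosphodiesterase, was among those highest in the 3 female libraries, with 203, 183 and 172 normalized counts in WT, 386, 237 and 132 in Het, and 352, 469 and 210 in KO (log2 KO against WT 0.81 ± 0.39, SE). Gnal, the G protein subunit that couples D1 receptors, was instead highest in WT3, Het3 and KO3, like Drd1 and Ppp1r1b, as were Ptpn5, Rgs9 and Arpp21. Ppp1r1a, a phosphatase inhibitor related to DARPP-32, gave -0.13 ± 0.12 (log2 KO against WT, SE).

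The 10 genes most like the mean profile of the members were chosen by Pearson's correlation over the 9 libraries, as a description. That profile is the mean of the centred log2 values of the 9 members. These values were not scaled, so members that vary widely, such as Isl1, weigh most in it. The 9 libraries share their sex and tissue differences. The 10 genes were Ebf1 (0.984), Dlx6 (0.982), Rxrg (0.976), Cyp2j6 (0.972), Sp9 (0.963), Gad2 (0.962), Kirrel (0.955), Zfhx3 (0.954), Klhl13 (0.953) and Orc5 (0.953). Rxrg, a retinoid X receptor, had 130, 50.4 and 85 normalized counts in WT, 480, 111 and 20.9 in Het, and 379, 529 and 20.2 in KO. Dlx6, a homeobox gene of the ganglionic eminences, had 109, 57.6 and 133 in WT, 247, 86.7 and 62.1 in Het, and 205, 244 and 53.7 in KO. Among the members, the correlation with the mean of the other 8 was 0.960 for Adora2a, 0.954 for Tac1, 0.946 for Rarb, 0.891 for Drd2 and 0.883 for Isl1. It was 0.609 for Penk, 0.195 for Foxp1, -0.347 for Ppp1r1b and -0.471 for Drd1.

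Markers of other tissues moved with these libraries too, and their part in the result was not tested. Of 10 genes of the ganglionic eminence, 5 (Dlx2, Dlx5, Dlx6, Gad1 and Gad2) were highest in the 3 female libraries, and their list summed to between 8481 and 12027 in WT, 7904 and 12977 in Het, and 6612 and 15282 in KO. Of 8 meningeal fibroblast genes, 7 were highest there, and the list ran from 352 in Het3 to 19813 in KO1, with Col1a1 at 87.2 in Het3. The olfactory bulb list ran from 862 in Het3 to 4880 in Het1, and 2 of its 8 genes, Barhl2 and Eya2, were highest in the female libraries. None of the 10 cortical interneuron genes had that pattern.

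Cortical excitatory neuron genes also showed it in 0 of 12, and Mef2c was highest in WT3, Het3 and KO3, as Drd1 was. Mef2c was 14280 and 17420 in KO1 and KO2 and 36006 in KO3. Defining markers of cholinergic and pallidal cells were near 0, with Lhx8 listed at 0 in 6 libraries and at most 8.91, and Chat at most 1.24. Other genes of that list were not: Nkx2-1, a factor of the medial ganglionic eminence and pallidum, ran from 23.1 to 83.1 with its highest value in KO2, and Slc5a7, the choline transporter, from 6.99 to 21.6. All 7 of its 12 genes that were tested were positive in KO against WT (median log2 0.17, none called), and Zic2 had its 3 highest values in the female libraries. In the thalamus and hypothalamus list, Six6 was listed at 0 in 6 libraries, and Tcf7l2 and Rora, which other cells also make, were highest in the female libraries (list sums 300 to 742). Of 8 choroid plexus genes, Enpp2, which other cells also make, was highest in the female libraries (1549.5 in Het1, 1973 in KO1 and 1623 in KO2). Ttr, the choroid plexus transthyretin gene, was highest in WT2 (3156) and Het2 (11029). The list of 6 erythroid genes, most of whose sum is globin, summed to 98729 in KO1 and 27009 in KO2, on opposite sides of the other libraries although both lie high for Isl1. Slc4a1 of the same list, the red cell anion exchanger, was instead highest in the female libraries (118 in Het1, 80.7 in KO1 and 176 in KO2).

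**Figure D4:**
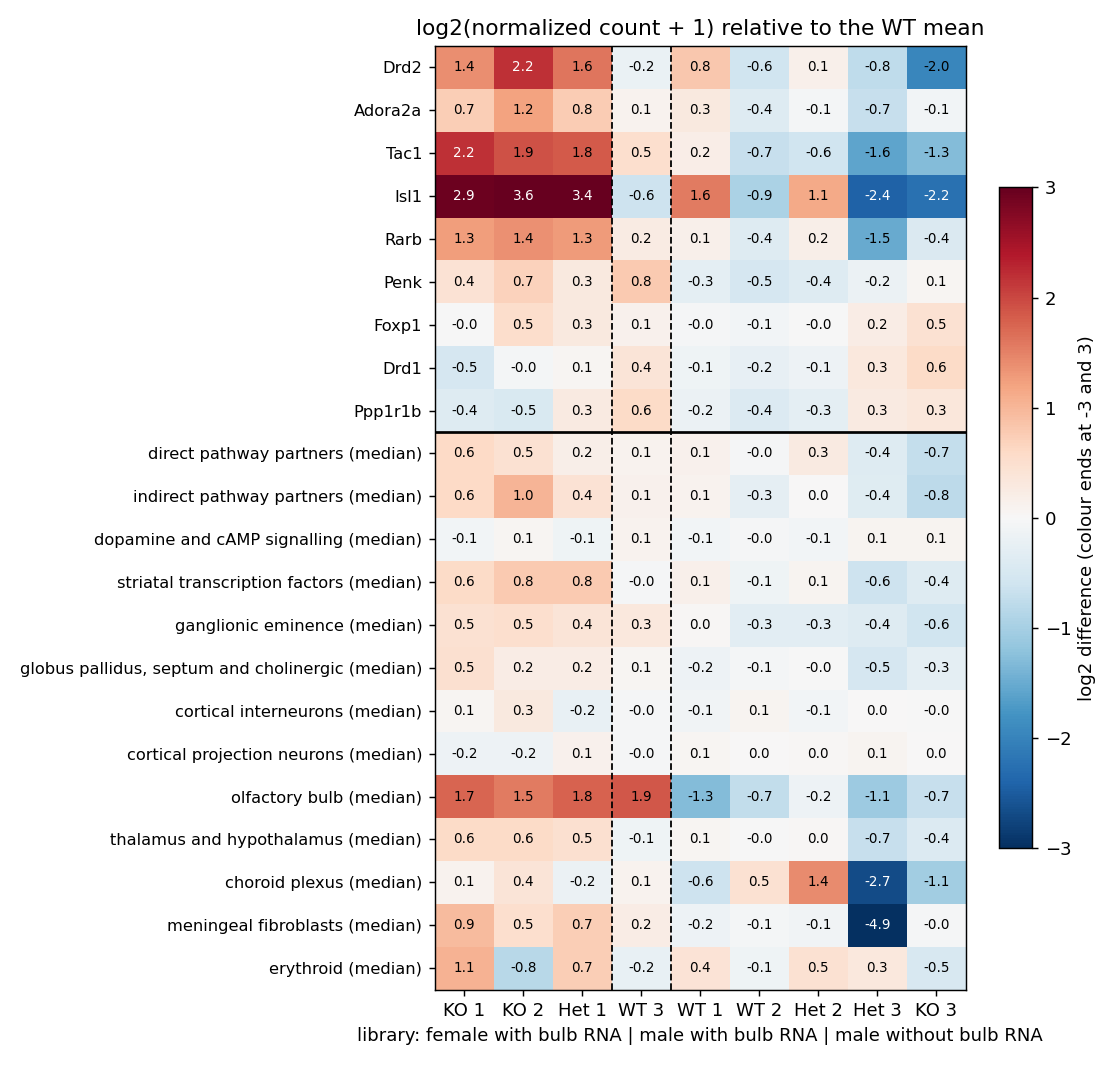
Difference of log2(normalized count + 1) from the WT mean (colour and printed value, red higher, with colour ending at -3 and 3) for the 9 genes and for the median gene of 13 lists (rows) in the 9 libraries (columns, ordered by sex and bulb RNA, separated by dashed lines). Drd2, Adora2a, Tac1, Isl1 and Rarb are red in the 3 female libraries on the left, Drd1 and Ppp1r1b are below 0 in KO1 and KO2 but not in Het1, and the olfactory bulb row is red in all 4 libraries with bulb RNA.

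Adding a score of 6 other striatal genes to the model (Ebf1, Rxrg, Six3, Ikzf1, Zfp503 and Slc35d3, chosen after the values were seen) made the KO against WT log2 fold changes of the 5 members that move together smaller in size. They were 0.04 ± 0.29 for Isl1, -0.24 ± 0.33 for Drd2, 0.16 ± 0.46 for Tac1, 0.22 ± 0.25 for Rarb and 0.32 ± 0.17 for Adora2a (SE, limma adjusted p = 0.999 each). For Adora2a, KO against Het was 0.46 ± 0.16 with the score (SE, unadjusted p = 0.0219, limma adjusted p = 0.790). The SE of Isl1 in KO against WT fell from 1.79 to 0.29 with this score. Since the score was picked for its likeness to the members, this describes how these genes vary together and is no independent evidence about genotype.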

How the data were processed

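Deposited values are normalized counts, a signal in which the authors scaled each library's gene counts by its size factor, as the table's heading and its fractional values show. GRCm38, R 3.6.0, Salmon 0.11.2 and DESeq2 1.19.11 are listed in the submitters' processing notes, with no role or order. Libraries were stranded and selected for polyadenylated RNA, per the labels' protocols. Totals per library were 36.0 to 38.6 M. Of the values below 6, 60.8% to 78.2% per library fell within 0.1 of a whole read, so whole reads were not recovered and count tests were not used.

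The design allowed for raw counts or normalized values, and the test for normalized values was used. limma 3.58.1 (R 4.3.3; lmFit, eBayes with trend) fitted 1 mean per genotype to log2(value + 1) over all 9 libraries, for the 15069 of 18820 genes with a mean of at least 10. This scale narrows differences between low values, and so can understate fold changes of low genes. The KO against WT values of Isl1 and Drd2 were instead 1.43 and 0.54 at a pseudocount of 0.5 and 1.47 and 0.58 at 5. P-values are two-sided, with Benjamini-Hochberg adjustment over the 15069 genes and a threshold of 0.05, and no p was adjusted over the members alone. The fit was checked on simulated data. Every simulated gene had the same spread and no sex or tissue difference, so the check does not cover members that vary more. Symbols (18783 gene IDs matched) and gene positions came from GENCODE M21 (GRCm38).

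Sex was read from Ddx3y (100 dividing the libraries) and olfactory bulb RNA from Cdhr1 (500). The members and lists were chosen with earlier results of these data known. Named genes are the 9 members, the 3 genes of smallest p in KO against WT in each of 4 partner lists, the 10 most correlated genes and, for other tissues, counts, sums and the first genes written; Neurod6, Mef2c, Sp9, Gnal, Ptpn5, Rgs9, Arpp21 and the others named for being highest in a set of libraries were chosen after their values were seen. The results of some genes that this rule takes are not reported here. Same-numbered libraries deviated together in each of the 3 Het and KO pairs (correlations 0.453, 0.104 and 0.469), all above the threshold of 0.1. Differently numbered Het2 and KO1 (0.146) and Het1 and KO2 (0.119) also passed it, while the rest lay from -0.464 to -0.165. Het1 and KO1 share sex and bulb RNA status, as do Het3 and KO3, so these correlations do not show that the numbers mark pairs. Same-numbered libraries did not deviate together in every pair with WT (-0.0745 to 0.251). Alternatives changed the pseudocount, filter, scaling, samples, a replicate block, sex, bulb RNA, or left out 1 library.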

Additional observations from a re-analysis of the deposited data

How the results depend on the processing

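A pseudocount of 0.5 or 5, another filter or another scaling called 0 genes in each comparison and kept the sign of the members' median. A filter that keeps the members cannot alter that median. The replicate block also called 0 genes in each comparison, with 382 (KO against WT), 493 (Het against WT) and 984 (KO against Het) genes at an unadjusted p under 0.05. The medians stayed at 0.54, 0.08 and 0.49, which the block cannot alter in this balanced design. The block changed no call. Fitting only the 2 groups compared called 1 gene in Het against WT and 1 in KO against Het. The male libraries alone called 2 genes in Het against WT. The libraries with bulb RNA called 53 genes in KO against WT, 31 in Het against WT and 30 in KO against Het, with a spread that comes from KO1 and KO2 alone.

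The median over members of the KO against WT log2 fold change turned from 0.54 to -0.11 with sex as a term, -0.0765 in male libraries alone and -0.0241 in libraries without bulb RNA. That of Het against WT turned from 0.08 to -0.36, -0.31 and -0.33 in the same settings, to -0.0014 with the dopamine and cAMP covariate, and to -0.0334 with the score of 6 striatal genes, which was added after seeing the data. The cause was not tested. Leaving out 1 library at a time called 0 to 1 genes in each comparison and moved the medians from 0.25 to 0.98 (KO against WT), -0.31 to 0.36 (Het against WT, -0.31 without Het1 and -0.12 without WT2) and 0.05 to 0.97 (KO against Het). The KO against WT log2 fold change of Isl1 ran from 0.35 without KO2 to 3.28 without KO3, that of Drd2 from -0.28 to 1.80 and that of Rarb from 0.41 to 1.32 without the same 2 libraries, and that of Tac1 from 0.30 without KO1 to 2.05 without KO3. Drd1 turned to -0.27 without KO3 and Ppp1r1b to 0.11 without WT3.

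Of 135 member values under the other alternatives, the sign changed in 25 for KO against WT, 23 for Het against WT and 21 for KO against Het. Depth limits Isl1, whose lowest values are little above 3 reads.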
